A study of Mus musculus with 9 samples.

Results

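The antioxidant, glutathione and thioredoxin genes were followed in mouse eggs arrested at metaphase II, where they wait for the sperm. A list of 46 gene symbols, chosen with earlier results of these data known, defined them. Of the 46, 44 had a row among the 22526 genes of the deposited table. Srxn1 (sulfiredoxin) and Gstt1 (a glutathione transferase) were not analysed here. All eggs were of the ICR strain, which is outbred, and formed 3 groups of 3 libraries, namely NMN supplementation, aged and young. NMN is nicotinamide mononucleotide, a precursor of the coenzyme NAD, and the series asks whether it counters the loss of egg quality with maternal age. The labels give no age in any group, no dose or route of NMN, and neither the number of eggs nor of mice behind a library. P-values therefore measure the spread between libraries only, which may be technical.

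Superoxide dismutases turn superoxide into hydrogen peroxide, which catalase splits into water and oxygen and the glutathione peroxidases and peroxiredoxins reduce to water. Glutathione and thioredoxin supply the electrons to most of these peroxidases and are recharged by reductases that draw on NADPH, made by glucose-6-phosphate dehydrogenase among others. The transcription factor NRF2, encoded by Nfe2l2 and held in check by KEAP1, switches on many of these genes. An egg at metaphase II is transcriptionally silent, so its mRNA is largely what was stored during growth.

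Several members are selenoproteins, whose mRNA carries a UGA codon that is read as selenocysteine, in most of them at the catalytic site. GENCODE M21 marks such a codon in 7 members, a feature that the list did not use. The codon stands in capitals within the coding sequence of the longest transcript so marked, because these genes include both abundant and barely detected members.
Gpx3, codon 73: gtagccagctacTGAggtctgacagaccaa
Selenow, codon 13: tattgtggagctTGAggctataagcccaag
Txnrd1, codon 612: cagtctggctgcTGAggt
Gpx4, codon 129: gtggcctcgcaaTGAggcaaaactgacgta
Gpx1, codon 47: gtcgcgtctctcTGAggcaccacgatccgg
Msrb1, codon 95: caatcaagattcTGAatatttagcagctca
Txnrd2, codon 526: gtgactggttgcTGAggc
In Txnrd1 and Txnrd2 the codon is the last but one before the stop, so their windows end there. Of these 7 genes, Selenow and Gpx3 were abundant, with means of 86.7 and 53.7 FPKM over the 9 libraries, and Txnrd1 was moderate at 4.83 FPKM. The means of Gpx4, Gpx1, Msrb1 and Txnrd2 were 0.835, 0.664, 0.22 and 0.0747 FPKM. FPKM are read fragments scaled to transcript length and library size, so levels can be set side by side between genes, but only roughly. A trend with transcript length, given below, remained in some libraries.

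NRF2 binds antioxidant response elements, whose core TGACNNNGC was searched on both strands of the RefSeq promoter windows (GRCm38.p6, 250 bases before to 50 after each start). Of the 39 members in that table, 9 (23.1%) held the core, against 3781 of 27025 genes (14.0%) in the whole table. The core was not counted for overlap with other motifs, and a match describes letters, not binding. The 7 holders that passed the expression filter described below are shown, with the core in capitals, on the strand of the gene.
Prdx1, chr4:116685456-116685484, plus strand: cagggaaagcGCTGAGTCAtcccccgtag
Gstm5, chr3:107895802-107895830, plus strand: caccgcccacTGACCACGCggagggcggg
G6pdx, chrX:74428919-74428947, minus strand: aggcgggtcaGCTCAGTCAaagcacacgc
Nfe2l2, chr2:75704885-75704913, minus strand: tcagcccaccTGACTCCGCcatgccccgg
Txnrd1, chr10:82859104-82859132, plus strand: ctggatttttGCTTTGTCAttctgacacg
Gclm, chr3:122245413-122245441, plus strand: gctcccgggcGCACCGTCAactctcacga
Sod1, chr16:90220696-90220724, plus strand: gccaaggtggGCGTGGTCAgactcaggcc
The levels of these 7 genes ran from a mean of 726 FPKM for Prdx1 to 2.32 FPKM for Sod1, and none of them passed the test in any comparison below. The window of Nqo1, the textbook NRF2 target, did not hold these letters.

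The steps between low values put depth between 16.28 M and 19.25 M reads a library (M, mega). The oocyte markers Gdf9, Bmp15, Zp1, Zp2, Zp3 and 7 others summed to 7648 to 9314 FPKM in NMN libraries, 8887 to 10170 FPKM in aged and 6835 to 8148 FPKM in young libraries. Figla was low and listed at 0 in young replicate 1, and the other 11 had at least 14.02 FPKM in every library. Aged replicate 2 stood apart from the other 8 libraries. Its sum over 17 cumulus and granulosa cell markers was 26.8 FPKM, against 6.45 and 8.56 FPKM in the other aged libraries, 6.32 to 8.82 FPKM in NMN and 7.85 to 10.8 FPKM in young libraries. It was the highest library for 13 of the 17, and Ptx3, Inha, Fst, Tnfaip6 and Hsd17b1 were listed at 0 in all others. It was not the highest for Cyp19a1, Lhcgr, Kitl and Ptgs2. Cyp19a1 was lowest in it, at 3.03 FPKM against 3.05 to 6.2 FPKM elsewhere, and Lhcgr was listed at 0 in it. In the sum over blood markers, of which only Alas2 was in the table, it held 0.358 FPKM, against at most 0.125 FPKM elsewhere. The 4 leukocyte markers in the table summed to 0.98 FPKM in it and to 0.382 to 2.52 FPKM elsewhere, and the 5 stroma and vessel markers to 5.83 and to 6.29 to 11.2 FPKM. Short mRNAs were also high in aged replicate 2. Among 585 tested genes whose coding transcripts had a median length under 1 kb, it was the highest of the 9 libraries for 58.8%, against 21.2% of the 5435 genes of 2 kb or more and 27.1% of all tested genes. Several results that rest on this library are given with and without it.

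The 44 genes fell into 3 classes of detection. A gene was tested if 3 or more libraries had 1 FPKM or more of it, which kept 23 members and 9168 genes in all. Another 18 members reached the value that 3 reads would give at their own transcript length in at least 1 library but missed that filter. Sod3 (extracellular superoxide dismutase), Gpx8 (a peroxidase of the endoplasmic reticulum) and Gstm1 (a mu-class glutathione transferase) stayed under it in all 9 libraries and were below detection, with highest values of 0.0154, 0.0603 and 0.0705 FPKM. Such floors cover counting error only. Of the 18, 5 reached the floor in aged replicate 2 alone. These were Gpx7, a peroxidase of the endoplasmic reticulum (0.62 FPKM), mitochondrial glutaredoxin Glrx2 (0.308 FPKM), the transferases Gstm2 and microsomal Mgst1 (0.585 and 0.732 FPKM), and Msra, which repairs oxidised methionine (0.272 FPKM). Msrb1, which repairs the other stereoisomer of methionine sulfoxide, reached at most 0.488 FPKM, also in that library. Without that library 8 of the 44 members were below detection. In bulk libraries, fewer cells of a type and less RNA per cell cannot be told apart.

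**Figure D1:**
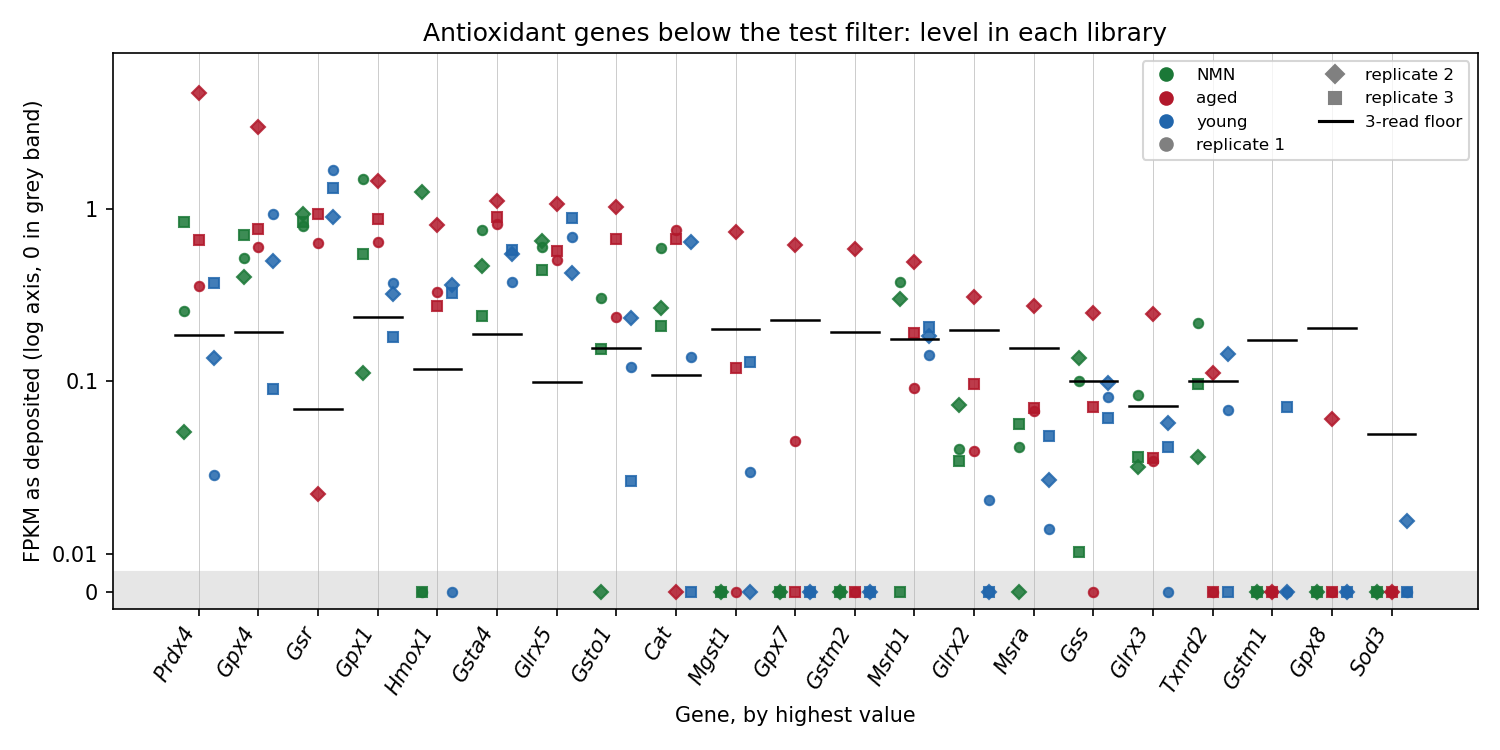
FPKM as deposited (log axis, values of 0 in the grey band) of the 21 antioxidant genes below the test filter, with 3 NMN, 3 aged and 3 young libraries as points left to right per gene and the 3-read floor of the shallowest library as a bar. Aged replicate 2 (red diamond) was the highest library for 14 of the 21 genes.

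Among the dismutases, mitochondrial Sod2 outweighed cytosolic Sod1. Sod2 was at 17.4, 15.7 and 17.7 FPKM in NMN libraries 1 to 3, at 13.5, 15.2 and 12.3 FPKM in aged libraries and at 14.4, 15 and 12.5 FPKM in young libraries. All 3 NMN values lay above every aged and young value. Sod1, the copper-zinc enzyme of the cytosol, was at 4.51, 1.16 and 1.87 FPKM in NMN, 1.61, 4.28 and 3.07 FPKM in aged and 2.41, 1.25 and 0.724 FPKM in young libraries. Its groups overlapped and its values varied 6.23-fold between libraries. Catalase mRNA (Cat) was under the filter, at 0.592, 0.266 and 0.208 FPKM in NMN, 0.751, 0 and 0.666 FPKM in aged and 0.137, 0.638 and 0 FPKM in young libraries.

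Of the glutathione peroxidases, secreted Gpx3 dominated. It was at 53.0, 44.8 and 58.0 FPKM in NMN libraries, 70.0, 41.1 and 75.8 FPKM in aged and 43.6, 44.2 and 52.4 FPKM in young. Aged replicates 1 and 3 lay above all 6 other-group libraries, while aged replicate 2 was the lowest of the 9. Gpx1, the cytosolic peroxidase, was at 1.49, 0.111 and 0.546 FPKM in NMN, 0.641, 1.45 and 0.875 FPKM in aged and 0.373, 0.319 and 0.18 FPKM in young libraries. The 3 aged libraries lay above the 3 young ones for Gpx1, which was not tested because only 2 libraries reached 1 FPKM. Gpx4, which reduces lipid peroxides in membranes, was at 0.517, 0.404 and 0.702 FPKM in NMN, 0.603, 2.99 and 0.766 FPKM in aged and 0.937, 0.5 and 0.0904 FPKM in young libraries. Only aged replicate 2 passed 1 FPKM for Gpx4.

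Prdx1, a cytosolic peroxiredoxin, was the most abundant member and ranked 51st of all 22526 genes by mean FPKM. It was at 668, 671.9 and 661 FPKM in NMN libraries, 812, 900.2 and 698 FPKM in aged and 738, 784 and 599.8 FPKM in young. In FPKM as deposited, the NMN libraries were within a narrow range, and all lay below the aged ones. The scaling factors of the fit, 1.04, 0.963 and 1.03 for NMN libraries 1 to 3, widened that range. Prdx2, its cytosolic relative, was at 81.7, 63.6 and 86.5 FPKM in NMN, 67.8, 236 and 64.0 FPKM in aged and 98.6, 82.2 and 77.7 FPKM in young libraries. Aged replicate 2 was 2.4 times as high as the next library, and the other aged libraries lay below the young ones.

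The mitochondrial peroxiredoxin Prdx3 was low, at 0.845, 1.77 and 1.47 FPKM in NMN, 0.976, 0.707 and 0.772 FPKM in aged and 1.74, 1.91 and 1.13 FPKM in young libraries. Here the aged libraries lay below every young one, and NMN replicates 2 and 3 were within the young range. Prdx5, found in mitochondria, peroxisomes and cytosol, averaged 2.78 ± 1.05 FPKM in NMN, 4.69 ± 3.72 FPKM in aged and 3.42 ± 1.01 FPKM in young libraries (SD, n = 3 each). Prdx6, which also acts on phospholipid hydroperoxides, averaged 2.97 ± 0.71, 3.06 ± 0.12 and 2.47 ± 0.99 FPKM in NMN, aged and young libraries (SD, n = 3 each). Prdx4, the peroxiredoxin of the endoplasmic reticulum, was at 4.7 FPKM in aged replicate 2 and at most 0.833 FPKM in the others.

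In the thioredoxin system the binding partner outweighed the carriers. Txnip, which binds thioredoxin and limits glucose uptake, ranked 68th of all genes, at 685, 542 and 529 FPKM in NMN, 674.5, 430.3 and 639 FPKM in aged and 525, 535 and 519.6 FPKM in young libraries. Aged replicate 2 was the lowest library and aged replicates 1 and 3 lay above all young ones. Txn1, cytosolic thioredoxin, was at 12.9, 8.71 and 9.03 FPKM in NMN, 11.8, 22.3 and 8.28 FPKM in aged and 9.16, 7.5 and 6.03 FPKM in young libraries, with aged and young overlapping.

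Mitochondrial thioredoxin, Txn2, was higher than Txn1 on the FPKM scale, at 30.2, 25.7 and 33.0 FPKM in NMN, 22.2, 46.8 and 22.9 FPKM in aged and 33.0, 25.8 and 26.8 FPKM in young libraries. Its mitochondrial reductase Txnrd2 had at most 0.216 FPKM in any library. The cytosolic reductase Txnrd1 was at 5.03, 5.81 and 4.03 FPKM in NMN, 5.63, 4.31 and 7.15 FPKM in aged and 4.48, 3.55 and 3.53 FPKM in young libraries. Aged replicates 1 and 3 lay above the young libraries for Txnrd1, and aged replicate 2 lay within their range.

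Glrx, the cytosolic glutaredoxin that removes glutathione from proteins, was the only glutaredoxin past the filter. It was at 102, 93.7 and 101 FPKM in NMN, 107, 83.8 and 98.2 FPKM in aged and 83.8, 96.2 and 75.9 FPKM in young libraries, varying 1.41-fold over the 9. Glrx5, which serves iron-sulfur cluster assembly in mitochondria, was detected in all 9 libraries at up to 1.07 FPKM, and Glrx3, a cytosolic relative that also handles iron, reached 0.245 FPKM.

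The enzymes that make glutathione were low. Gclc, the catalytic subunit of the rate-limiting ligase, was at 4.36, 1.8 and 2.79 FPKM in NMN, 1.56, 3.07 and 1.55 FPKM in aged and 3.22, 1.13 and 1.53 FPKM in young libraries, with overlapping groups. Its modifier subunit Gclm averaged 4.14 ± 1.04 FPKM in NMN, 4.29 ± 1.23 FPKM in aged and 3.26 ± 0.21 FPKM in young libraries (SD, n = 3 each). Gss, the second enzyme of synthesis, had at most 0.249 FPKM. Gsr, the reductase that regenerates glutathione, was at 0.799, 0.933 and 0.834 FPKM in NMN, 0.629, 0.0223 and 0.937 FPKM in aged and 1.67, 0.898 and 1.32 FPKM in young libraries. Aged replicate 2 was the lowest for Gsr, and only 2 young libraries passed 1 FPKM.

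Of the transferases, which couple glutathione to electrophiles, only Gstm5 and Gstp1 passed the filter. Gstm5 was at 50.8, 19.97 and 36.6 FPKM in NMN, 22.4, 126 and 48.9 FPKM in aged and 22.0, 22.3 and 18.4 FPKM in young libraries. The young values were tight, all aged values lay above them, and aged replicate 1 did so by a small margin, while aged replicate 2 was 2.48 times as high as the next library. Gstp1 averaged 23.9 ± 9.99 FPKM in NMN, 30.9 ± 15.1 FPKM in aged and 18.7 ± 2.97 FPKM in young libraries (SD, n = 3 each). Gsta4, which acts on 4-hydroxynonenal, and Gsto1 reached 1.12 and 1.03 FPKM, both in aged replicate 2. For Gsta4 the 3 aged libraries, at 0.821, 1.12 and 0.901 FPKM, lay above every NMN library (0.239 to 0.751 FPKM) and every young library (0.378 to 0.574 FPKM). Of the 21 members below the filter, 5 were higher in all aged than in all young libraries (Gpx1, Gsta4, Gsto1, Glrx2 and Msra). That is 23.8% against 5.5% of the 13358 genes below the filter with a value above 0, which were not matched for level. For Gsto1 the margin was 0.2347 FPKM in aged replicate 1 against 0.2337 FPKM in young replicate 2. The 5 genes were not tested, and Glrx2 and Msra were over the floor in aged replicate 2 alone. All NMN libraries lay below all aged ones for 2 of the 21 members (Gsta4 and Msra), 9.52% against 4.14% of the 13358 genes.

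NRF2 mRNA (Nfe2l2) was at 6.95, 4.02 and 7.03 FPKM in NMN, 5.69, 3.88 and 5.6 FPKM in aged and 3.58, 3.74 and 5.45 FPKM in young libraries, and the groups overlapped. Keap1, its inhibitor, was at 1.17, 2.37 and 0.902 FPKM in NMN, 0.775, 0.995 and 1.47 FPKM in aged and 1.27, 0.625 and 1.33 FPKM in young libraries. Their target Hmox1, a haem oxygenase, was listed at 0 in 3 libraries and reached 1.25 FPKM in NMN replicate 2. Nqo1 (ENSMUSG00000003849), a quinone reductase and NRF2 target, was at 14.3, 11.2 and 13.2 FPKM in NMN, 13.2, 11.4 and 13.7 FPKM in aged and 21.4, 21.5 and 17.4 FPKM in young libraries. Every NMN and every aged value lay below every young value.

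G6pdx, which makes NADPH in the pentose phosphate pathway, was at 28.2, 49.4 and 42.2 FPKM in NMN, 34.2, 16.9 and 31.1 FPKM in aged and 38.8, 48.2 and 55.1 FPKM in young libraries. The aged libraries lay below the young ones, and the NMN libraries overlapped with each. Selenow, a small thioredoxin-fold selenoprotein, was at 105, 51.2 and 71.0 FPKM in NMN, 61.5, 266 and 46 FPKM in aged and 84.6, 52.0 and 42.4 FPKM in young libraries. Romo1, a small mitochondrial membrane protein tied to reactive oxygen species, was at 38.1, 11.6 and 18.9 FPKM in NMN, 18.1, 80.5 and 18.3 FPKM in aged and 24.7, 13.7 and 11.5 FPKM in young libraries. In both genes aged replicate 2 was over 2 times as high as any other library and the rest of the aged group lay within the young range.

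**Figure D2:**
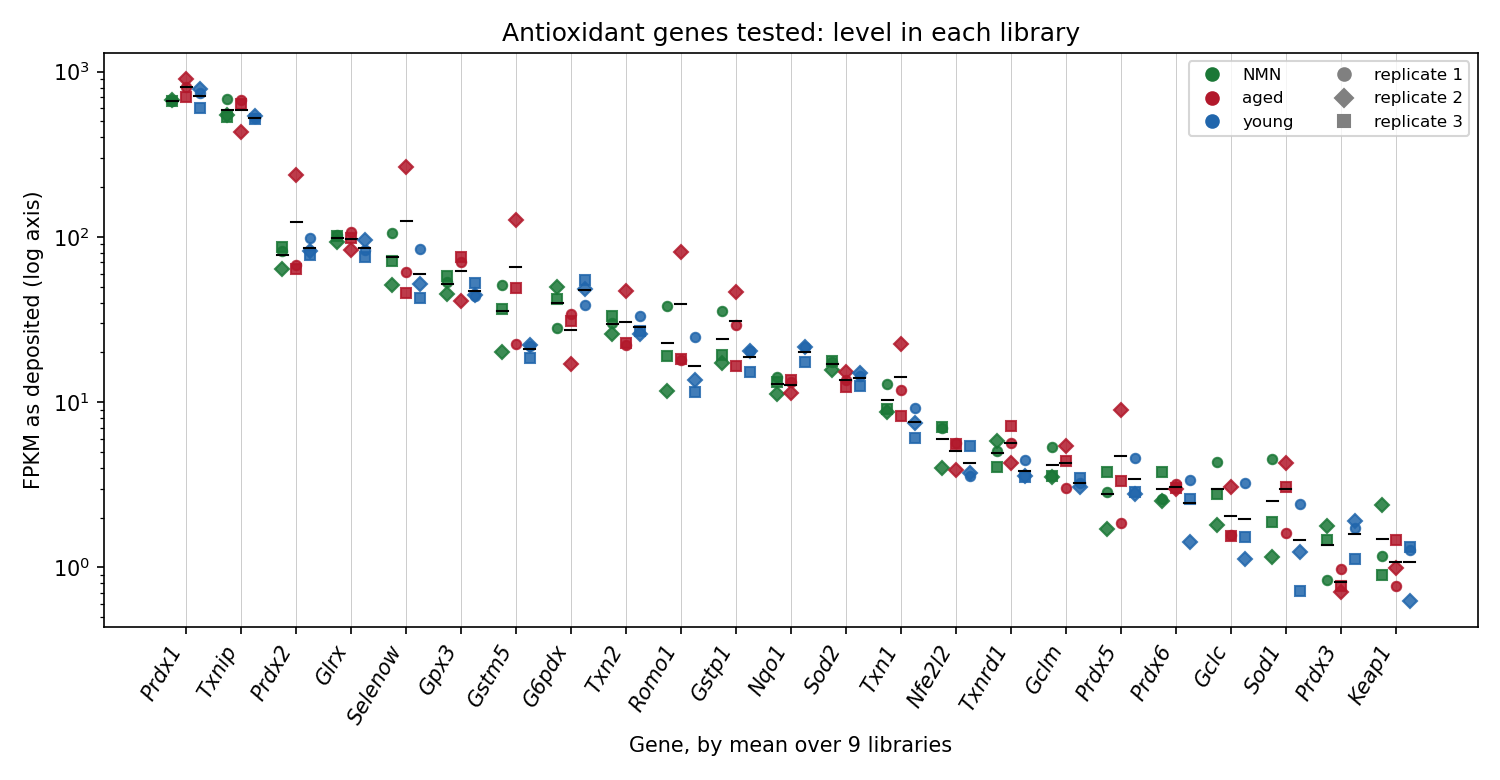
FPKM as deposited (log axis) of the 23 antioxidant genes tested, with 3 NMN, 3 aged and 3 young libraries as points left to right per gene and group means as black dashes. Levels ran from 726 FPKM (Prdx1) to 1.21 FPKM (Keap1) in the mean over 9 libraries, and aged replicate 2 was the highest library for 10 of the 23 genes.

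Aged replicate 2 was the highest library for 10 of the 23 tested members (43.5%), against 27.1% of all tested genes. It was so for 14 of the 21 members below the filter (66.7%), against 23.2% of all 13358 genes below it, which were not matched for level. Its share depended on transcript length. The 6 tested members with coding transcripts under 1 kb (Gstm5, Gstp1, Prdx5, Romo1, Selenow and Sod1) deviated from their 9-library mean by a median of 1.38 (log2) in aged replicate 2, against 0.54 in NMN replicate 1 and -0.72 in young replicate 3. Over all 585 tested genes under 1 kb the same medians were 0.52, 0.30 and -0.35. For the 8 tested members of 2 kb or more the median in aged replicate 2 was -0.22, and it was -0.15 over the 5435 tested genes of that length. The part of the length trend, and of the cumulus markers in aged replicate 2, in the values of single members was not tested beyond the fits without that library or without the trend.

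**Figure D3:**
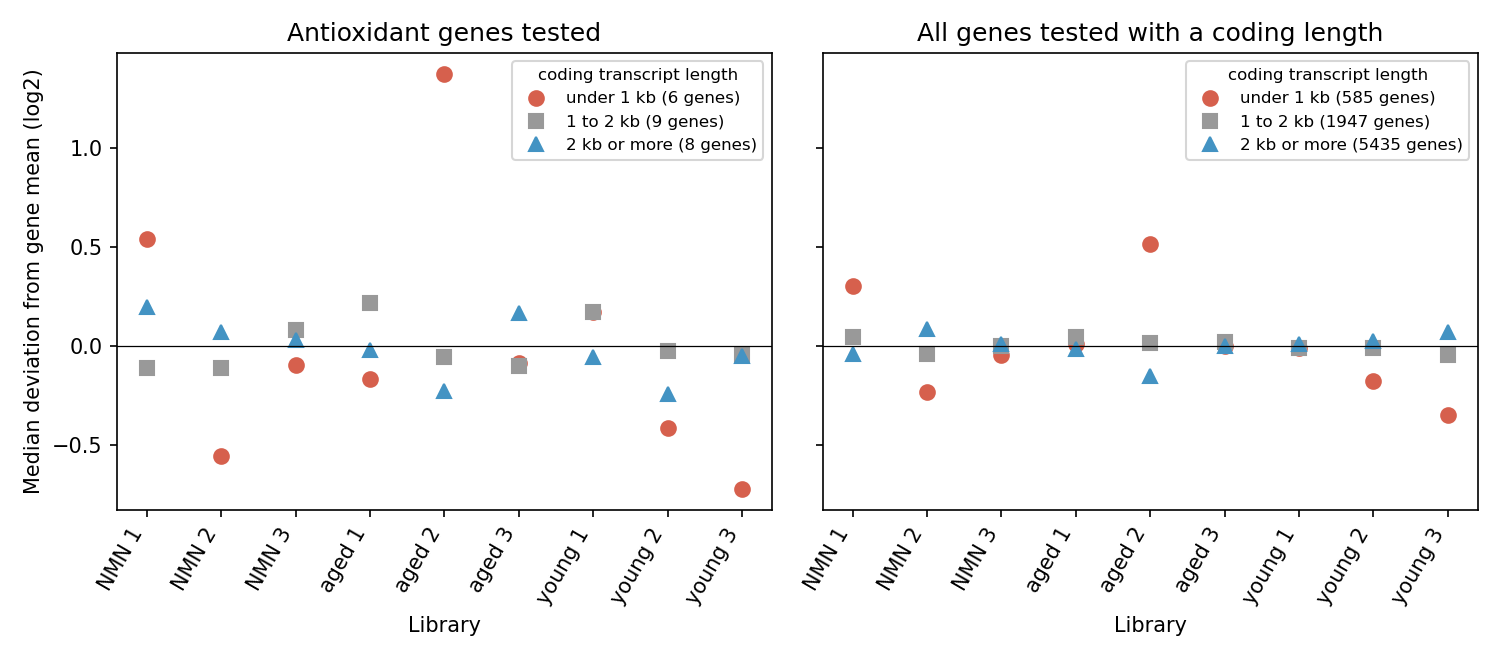
Median deviation (log2) from each gene's mean over 9 libraries, per library (3 NMN, 3 aged, 3 young), for genes grouped by coding transcript length, with the 23 antioxidant genes tested at left and all tested genes with a coding length at right. Genes under 1 kb stood highest in aged replicate 2 and lowest in young replicate 3 in both panels.

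The first comparison asks how the antioxidant mRNA pool of aged eggs differs from that of young eggs. No member passed the test, 0 of 23 (limma on log2(FPKM + 1), Benjamini-Hochberg adjusted p under 0.05 over all 9168 genes), where 2.18% of all tested genes passed, 1.27% higher and 0.916% lower. At an unadjusted p under 0.05 there were 5 members, 21.7% of the 23, and 18.3% of all genes, so the share of members was near the background. For 4 members, 17.4% against 23.8% of all tested genes, no aged value fell inside the young range or beyond it on the other side. They were Gstm5, higher in all aged libraries (12.6% of all genes were), and G6pdx, Nqo1 and Prdx3, lower in all aged libraries (11.2% of all genes were). The log2 difference was above 0 for 17 of 23 members (73.9%) and for 44.8% of all tested genes, with medians of 0.16 for the members and -0.05 for all genes. Without aged replicate 2 it was above 0 for 14 of 23 members (60.9%) and 48.0% of all tested genes.

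Nqo1 came nearest to the threshold. It averaged 12.7 ± 1.2 FPKM in aged and 20.1 ± 2.33 FPKM in young libraries (SD, n = 3 each), a log2 difference of -0.68 ± 0.19 (SE, 95% interval -1.09 to -0.27, limma adjusted p = 0.0962). Over all alternatives its adjusted p ranged from 0.0379 with library quality weights, at a log2 difference of -0.55, to 0.282 without young replicate 2. G6pdx averaged 27.4 ± 9.2 FPKM in aged and 47.4 ± 8.17 FPKM in young libraries, a log2 difference of -0.88 ± 0.34 (interval -1.62 to -0.13, adjusted p = 0.204). Without aged replicate 2 the log2 difference of G6pdx was -0.50.

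Gstm5 had the largest difference of the members, 65.8 ± 53.9 FPKM in aged and 20.9 ± 2.13 FPKM in young libraries, at a log2 difference of 1.21 ± 0.48 (interval 0.16 to 2.27, limma adjusted p = 0.214). Without aged replicate 2 it was 0.65. Prdx3 had a log2 difference of -0.53 ± 0.22 (adjusted p = 0.241), which the log2(FPKM + 1) scale understates at such low levels. With a pseudocount of 0.1 it was -0.92. Txn1 had a log2 difference of 0.67 ± 0.29 (adjusted p = 0.247) and of 0.37 without aged replicate 2. The remaining 18 members had adjusted p from 0.378 (Sod1) to 0.973 (Keap1). Of these, Romo1 had a log2 difference of 0.829, and of 0.205 without aged replicate 2. For Gstp1 the same values were 0.532 and 0.255.

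Leaving out aged replicate 2 changed which members stood out without giving a call. By a split chosen after the values were seen, aged replicates 1 and 3 both lay above all young libraries for Gpx3, Txnrd1, Txnip, Glrx, Gstm5 and Nfe2l2, and both lay below for Prdx2, Prdx3, Txn2, Nqo1 and G6pdx. That is 11 of 23 members (47.8%) against 37.8% of all tested genes, 26.1% against 18.7% higher and 21.7% against 19.2% lower. Such counts used FPKM as deposited. After division by the scaling factors of the fit, aged replicate 3 lay below young replicate 2 for Glrx and below young replicate 3 for Nfe2l2. In the fit without aged replicate 2, Gpx3 had a log2 difference of 0.64 ± 0.17 (limma adjusted p = 0.0847) against 0.30 ± 0.27 with it, and Txnrd1 had 0.61 ± 0.21 (adjusted p = 0.175) against 0.40 ± 0.23. Txnrd1 was the other member called with library quality weights, at a log2 difference of 0.65 (adjusted p = 0.0436). Those weights called 2 of 23 members and 906 of all 9168 tested genes. Txnip had 0.33 ± 0.15 (adjusted p = 0.318) without aged replicate 2 and 0.05 ± 0.23 with it. Prdx2 had -0.37 ± 0.17 (adjusted p = 0.31) without that library and 0.17 ± 0.37 with it. The log2 difference changed sign for 5 members, namely Prdx2, Selenow (-0.09 without that library, 0.60 with it), Prdx5 (-0.30 and 0.13), Gclc (-0.14 and 0.03) and Keap1 (0.03 and -0.02).

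**Figure D4:**
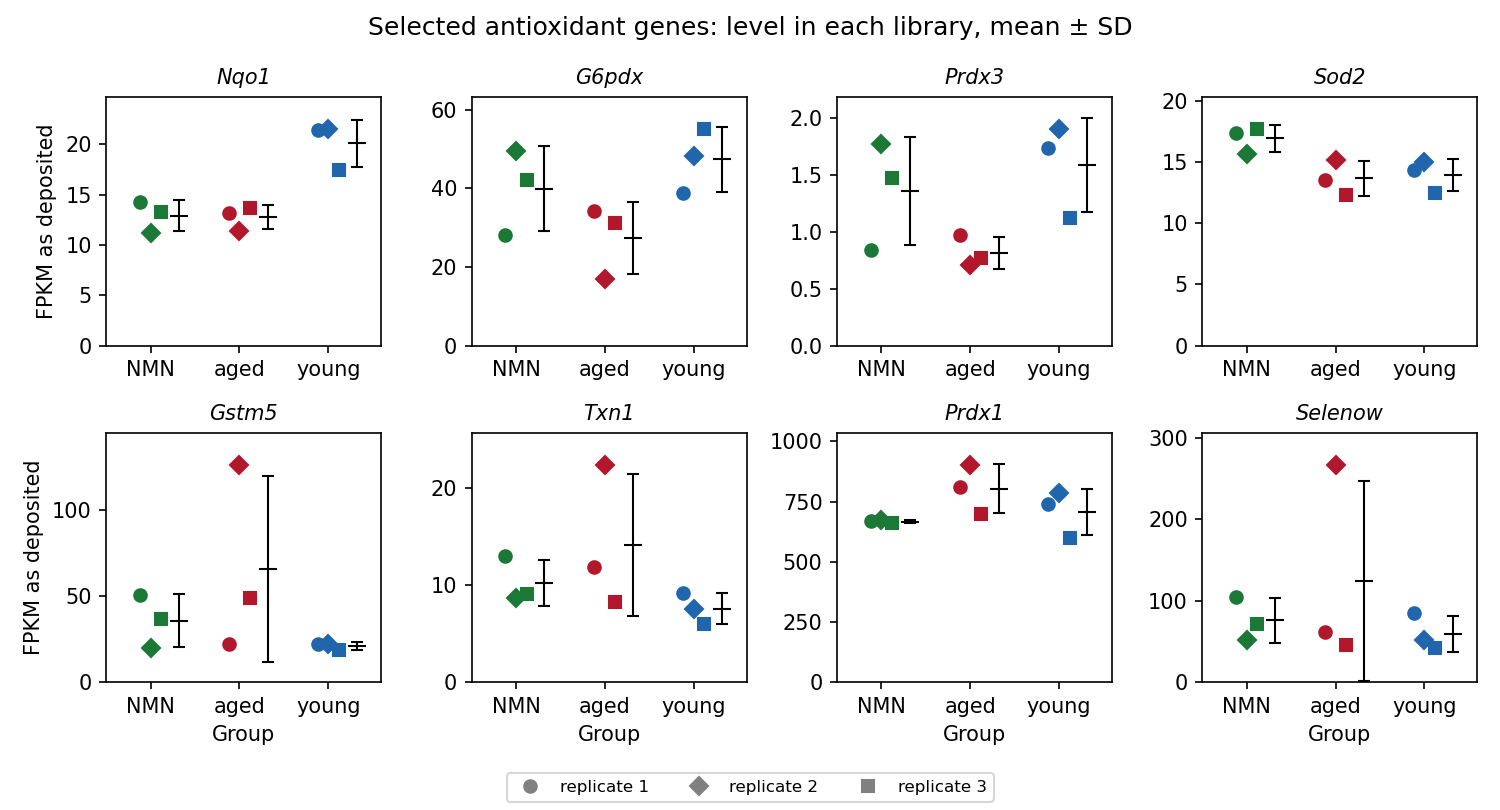
FPKM as deposited (linear axes from 0) of 8 antioxidant genes in 3 NMN, 3 aged and 3 young libraries, one point per library with group mean ± SD beside the points. Nqo1 lay below every young library in all NMN and aged libraries, and aged replicate 2 was the highest library for Gstm5, Txn1, Prdx1 and Selenow.

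The second comparison asks what NMN supplementation does to these mRNAs relative to aged eggs. Again 0 of 23 members passed (limma adjusted p under 0.05), against 0.218% of all tested genes, 0.12% higher and 0.0982% lower, and none had an unadjusted p under 0.05, against 11.3% of all genes. Sod2, higher, and Prdx1, lower, were the members without overlap between NMN and aged libraries, 8.7% against 15.6% of all tested genes (9.09% higher and 6.51% lower). Sod2 averaged 16.9 ± 1.09 FPKM in NMN and 13.7 ± 1.45 FPKM in aged libraries (SD, n = 3 each), a log2 difference of 0.30 ± 0.16 (interval -0.06 to 0.65, adjusted p = 0.517). With each library's length trend removed, an alternative added after the data were seen, the difference of Sod2 was 0.18. Prdx1 averaged 667 ± 5.75 FPKM in NMN and 803 ± 101 FPKM in aged libraries, a log2 difference of -0.25 ± 0.17 (interval -0.63 to 0.12, adjusted p = 0.598).

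G6pdx averaged 39.9 ± 10.8 FPKM in NMN and 27.4 ± 9.2 FPKM in aged libraries, a log2 difference of 0.55 ± 0.34 (limma adjusted p = 0.566), which was 0.18 without aged replicate 2 and 0.35 without NMN replicate 2. Prdx3 had a log2 difference of 0.36 ± 0.22 (adjusted p = 0.573), which was 0.21 without NMN replicate 2. Gstm5 had -0.61 ± 0.48 (adjusted p = 0.664), which was -0.29 without NMN replicate 2, -0.05 without aged replicate 2 and -1.15 if aged replicate 1 was left out. Gpx3 had -0.21 ± 0.27, and -0.55 ± 0.17 without aged replicate 2 (limma adjusted p = 0.193). Nqo1 stood at a log2 difference of 0.02 ± 0.19 (interval -0.39 to 0.43, adjusted p = 0.981). The log2 difference was above 0 for 10 of 23 members (43.5%), against 53.2% of all tested genes, and the medians were -0.04 and 0.03. Without aged replicate 2 it was above 0 for 11 of 23 (47.8%), against 49.1% of all tested genes. It changed sign for 9 members, with Romo1 at 0.09 without that library and -0.53 with it, Selenow at 0.38 and -0.32, Prdx2 at 0.15 and -0.39, and Prdx5 at 0.02 and -0.42. Nfe2l2, Txnip, Glrx, Nqo1 and Gclm also changed sign, by less.

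Against young eggs, the NMN group likewise had 0 of 23 members past the test, where 0.0764% of all tested genes passed, 0.0654% higher and 0.0109% lower. With the replicate number as a block in the fit of all 9 libraries, 0 genes passed in place of 7. The other values of this comparison come from the fit without a block. Nqo1 alone had an unadjusted p under 0.05, 4.35% of the members against 8.13% of all genes. In FPKM as deposited, the libraries did not overlap for Nqo1, lower, and for Sod2 and Gclm, higher. That is 13.0% of the members against 16.6% of all tested genes (9.58% higher and 6.99% lower). For Gclm this did not hold after the scaling of the fit. NMN replicate 3 (3.58 FPKM as deposited) then fell below young replicate 3 (3.48 FPKM as deposited). Nqo1 averaged 12.9 ± 1.57 FPKM in NMN and 20.1 ± 2.33 FPKM in young libraries, a log2 difference of -0.66 ± 0.19 (interval -1.07 to -0.25, limma adjusted p = 0.324). The aged and the NMN value of Nqo1 are both set against the same 3 young libraries, so they are not independent of each other.

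Nfe2l2 had a log2 difference of 0.35 ± 0.26 (limma adjusted p = 0.772) between NMN and young libraries, and 0.54 without NMN replicate 2. Gclc had 0.40 ± 0.30 (adjusted p = 0.772), with 0.18 without NMN replicate 1, 0.20 without young replicate 2, 0.61 without NMN replicate 2 and 0.68 without young replicate 1. Sod2 had 0.21 ± 0.16 (adjusted p = 0.779) and Gstm5 had 0.60 ± 0.48 (adjusted p = 0.782), the last with 0.33 without NMN replicate 1 and 0.93 without NMN replicate 2. The median over members was 0.21, against 0.00 over all tested genes. It was 0.11 with the length trend removed, 0.13 with library quality weights and 0.06 without NMN replicate 1. The difference was above 0 for 17 of 23 members (73.9%) against 49.8% of all tested genes.

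**Figure D5:**
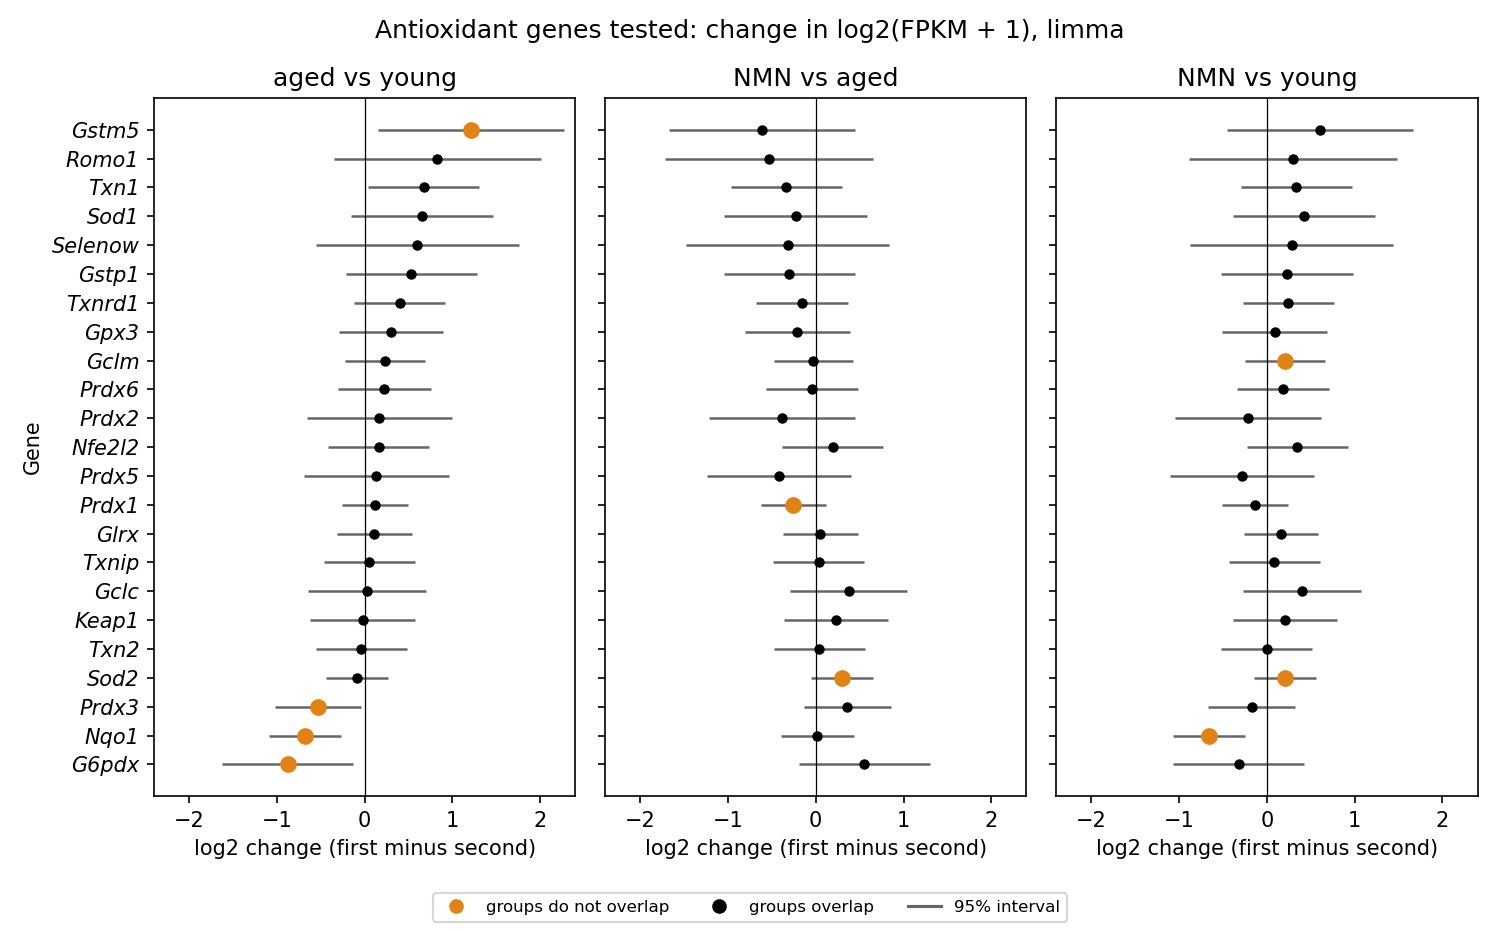
Differences in log2(FPKM + 1) with 95% intervals (limma) for the 23 antioxidant genes tested, for the comparisons of aged with young, of NMN with aged and of NMN with young libraries (first minus second). Orange points mark genes whose 3 libraries of each group do not overlap in FPKM as deposited, before the scaling of the fit. In aged against young the points ran from -0.88 (G6pdx) to 1.21 (Gstm5), and none of the 23 passed an adjusted p of 0.05.

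Of 117 neighbouring genes listed, 60 were tested, and in aged against young eggs 0 passed as higher and 1 passed as lower (limma), which is 1.67% against 2.18% of all tested genes. That gene was Txnl1, a thioredoxin-like protein that associates with the proteasome, at 25.2, 19.96 and 25.3 FPKM in aged and 43.1, 48.2 and 52.6 FPKM in young libraries (log2 difference -1.07 ± 0.20, adjusted p = 0.0318). The NMN libraries held 41.3, 48.6 and 42.6 FPKM of it, which overlapped with the young range, and no neighbouring gene passed in either NMN comparison (unadjusted p under 0.05 for 8 of 60 against aged, 13.3% with 11.3% of all tested genes, and for 2 of 60 against young, 3.33% with 8.13%). By group, 12 glutathione, 14 thioredoxin and methionine sulfoxide, 8 NADPH, 15 NRF2-related genes and 11 other guard genes were tested, with 3, 6, 2, 4 and 5 of them at an unadjusted p under 0.05 in aged against young. Together these were 20 of 60, 33.3% against 18.3% of all tested genes.

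Several members share sequence with other genes, which limits how firmly their level is known. An alignment of at least 300 bases at 95% identity or more to another annotated transcript was found for 10 members, 7 of them tested. Prdx1 has a processed pseudogene, Gm21399, at 24.2 to 35.8 FPKM, and Gstp1 has Gstp-ps at 4.6 to 15.6 FPKM and Gstp2 at up to 2.1 FPKM. Gpx4 has Gpx4-ps2, at up to 1.7 FPKM in aged replicate 2. Sod1 has the processed pseudogene Gm8566 (97.8% identity over 465 bases) and Txn1 has Txn-ps1 (95.8% over 309 bases). Neither pseudogene had a row among the genes, so reads shared with them cannot be seen. The labels do not say that strand was kept, and 10 members overlap exons of another gene. Romo1 overlaps Nfs1 on the opposite strand, which had at least 35.6 FPKM in every library, and Prdx5 overlaps Trmt112, at 1.09 to 8.07 FPKM with its highest value in aged replicate 2. Reads of such pairs may have been divided between them.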

How the data were processed

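The labels' protocols describe Smart-seq2, in which oligo(dT)-primed cDNA is amplified before DNBseq libraries are made. The authors deposited 1 table whose name calls it raw counts, but its values are FPKM, with fractions and sums of 300369 to 329359 per library. The submitters' processing notes name Bowtie2 2.2.5, RSEM and the build mm9, with no roles. The annotation and any filter are not given in the sources used here. GENCODE M21, on a later build, served for names (22487 of 22526 identifiers), transcript lengths, overlaps and coding sequence. Promoters came from RefSeq (GRCm38.p6), in which 39 of 46 members matched. No column belonged to other samples.

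Depth came from 2659 genes with 1 annotated transcript over 1500 nt, for which 96.6 to 97.7% of values below 20 reads fell within 0.02 of whole reads. The tests had been set for FPKM. FPKM were divided by trimmed-mean factors (30% by ratio, 5% by level), and log2(FPKM + 1) of genes with at least 1 FPKM in 3 libraries entered 1 fit of all 9 libraries in limma 3.58.1 (R 4.3.3, variance trend, robust). Log2 changes on this scale understate low genes. Overlap between groups was read from FPKM as deposited, before division by the factors. On simulated data for aged against young (8908 genes), 51% of genes changed by 1 and 90% of genes changed by 2 (log2) were recovered. These were 48% and 92% for NMN against aged, and 44% and 91% for NMN against young. Changed genes were drawn only from the more abundant ones, and noise had the same spread in every library. Recovery for low members, or with a library like aged replicate 2, was not simulated. Copies were found with BLAST 2.17.0.

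The members, lists and tests were chosen with earlier results of these data known. Library values are given for the 5 members with the smallest p per comparison, the 10 most abundant, and a fixed set of primary enzymes and regulators. The labels tie replicate numbers to no animal or day. Numbers were taken to pair libraries if each of the 3 same-number correlations (deviations from the group mean) passed 0.1. They did between NMN and young (0.497, 0.119 and 0.142). The NMN against young values still come from the fit without a block, which ignores that pairing. The replicate block was fitted only over all 9 libraries, and a paired fit of NMN and young libraries alone was not run. Between aged and young they were -0.339, -0.267 and 0.314, and with NMN against aged -0.372, -0.359 and 0.199.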

Additional observations from a re-analysis of the deposited data

How the results depend on the processing

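No member was called in any of 3 comparisons under any setting run except library quality weights, which gave 2 (Nqo1 and Txnrd1, aged against young). Those weights called 906 of all 9168 tested genes in that comparison. The 15 log2 changes with the smallest p among members (5 per comparison) kept their sign under each setting that tested them, while other members changed sign without aged replicate 2, 5 in aged against young and 9 in NMN against aged. Counts over all genes moved more. In aged against young the 200 calls became 31 with no low-value filter, 97 at a minimum of 10 FPKM, 73 with the replicate block, 132 with only the 2 groups in the fit and 906 with quality weights, and leaving out 1 library gave 20 (without young replicate 2) to 210 calls, with 27 without young replicate 3, 35 without aged replicate 3, 43 without young replicate 1, 130 without aged replicate 1 and 110 if NMN replicate 3 was left out. In NMN against aged the 20 calls became 9, 3, 6 and 163 with no filter, a minimum of 10 FPKM, only the 2 groups and quality weights, and 5 (without aged replicate 3) to 26 on leaving out 1 library, with 10 or 11 calls if NMN replicate 1 or 3 was left out and 8 if aged replicate 1 was. In NMN against young the 7 calls became 0, 1, 3, 0, 17 and 73 with no filter, a minimum of 10 FPKM, values as deposited, the replicate block, only the 2 groups and quality weights, and 1 (leaving out NMN replicate 1, aged replicate 1 or any young library) to 14 (without aged replicate 2) on leaving out 1 library, with 3 without aged replicate 3. The cause was not tested. The members' median moved beyond the spread between libraries in NMN against aged at a minimum of 10 FPKM (-0.233, 14 members tested) and in NMN against young with no filter (0.051, 44 members). Leaving out 1 library gave medians of -0.149 to 0.011 in NMN against aged and 0.057 to 0.209 in NMN against young. The replicate block changed no member's call. For the 21 members below the filter, depth of 16.28 M to 19.25 M reads limits what could be seen.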
